A study of Mus musculus with 6 samples.

Results

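The ADAMTS proteases, the matrix metalloproteinases (MMPs) and the tissue inhibitors of metalloproteinases (TIMPs) were followed through uterine expression arrays from mice given P4, the usual abbreviation of progesterone, or oil. Members were the genes named by 1 probe set annotation matching an Adamts, Mmp or Timp symbol with a number. They numbered 37 of the 18193 genes on the array: 15 ADAMTS genes, 18 MMP genes and 4 TIMP genes, measured by 70 probe sets, of which the brightest on average was used for each gene. All 37 were tested, and no filter on low values was applied. Family members outside this set are not analysed here.

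The 6 arrays held uterine RNA of 8-week-old females of mixed background, all GATA2 f/f and all ovariectomized, with 3 arrays in the group Oil and 3 in the group P4. GATA2 f/f by convention denotes a floxed Gata2 allele on both chromosomes, and the labels name no Cre recombinase, so both groups carry the same alleles. The labels give no dose, route or time of P4 and do not say whether an array holds 1 animal or a pool. The comparison asks which transcripts differ after P4 when the ovaries, the main source of female sex steroid hormones, have been removed. Marker genes of the labelled tissue were bright: all 8 epithelial, all 8 stromal and all 7 smooth muscle markers lay above the array median on all 6 arrays. In RNA from whole tissue, fewer cells of a type and less RNA per cell cannot be told apart. The median intensity of the arrays ran from 117 to 123, and the small number of arrays limits the precision.

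ADAMTS proteases are secreted zinc enzymes with thrombospondin motifs that cut proteoglycans such as versican and aggrecan or process procollagen. MMPs are zinc enzymes, made as inactive proforms, that cut collagens, laminins and many other matrix and surface proteins. TIMPs bind the active site of MMPs, and TIMP3 also inhibits several ADAM and ADAMTS enzymes. The uterus remodels its matrix in every cycle and in pregnancy, and Adamts1 is a known progesterone-dependent gene of the ovary.

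The promoters of the MMP genes set 1 group apart by sequence. On the RefSeq map of assembly GRCm38.p6, 9 of the 18 measured MMP genes lie together on chromosome 9, in the order Mmp13, Mmp12, Mmp1b, Mmp3, Mmp1a, Mmp10, Mmp8, Mmp20 and Mmp7. Among these 9 genes only Mmp27, between Mmp8 and Mmp20, was another protein-coding gene. The RefSeq promoter table (GRCm38.p6) held 23 of the 37 members with 26 promoters, and the 250 bases before each start were searched. The AP-1 motif TGANTCA, where N is any base and which reads the same on both strands, occurred in 8 of the 13 MMP genes with a promoter, and in none of the 6 ADAMTS or 4 TIMP genes. All 8 belong to the chromosome 9 group, whose remaining gene is Mmp8. Of the 9 measured MMP genes outside the group only 4 had a promoter to search, and these had no AP-1 motif. The TATA box TATAAA, searched on the gene's strand, accompanied it in 7 of the 8: Mmp10, Mmp13, Mmp1a, Mmp1b, Mmp20, Mmp3 and Mmp7. These counts are by gene, and Mmp12 and Mmp7 each also had another promoter without the AP-1 motif. By promoter, 8 of the 26 member promoters had the AP-1 motif, 8 the TATA box and 7 both. Both motifs together occurred in 0.791% of all 32851 promoters of the same length, the AP-1 motif in 6.75% and the TATA box in 7.59%. The chromosome 9 genes are neighbours of 1 family, and whether their matches are independent of each other was not tested.

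The 100 bases before the start are shown for 4 genes with both motifs, for their neighbour Mmp8 without either, and for Adamts1 and Mmp11, described below. They run 5′ to 3′ on the strand of the gene up to the last base before the start, and capitals mark the AP-1 motif and the TATA box. Mmp10 is from chr9:7502242-7502341, Mmp13 from chr9:7272414-7272513, Mmp1a from chr9:7464041-7464140, Mmp3 from chr9:7445722-7445821 and Mmp8 from chr9:7558329-7558428, all on the plus strand. Adamts1 is from chr16:85803114-85803213 and Mmp11 from chr10:75932503-75932602, both on the minus strand.
Mmp10: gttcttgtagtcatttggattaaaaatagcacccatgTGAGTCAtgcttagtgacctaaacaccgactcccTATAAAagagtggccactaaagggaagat
Mmp13: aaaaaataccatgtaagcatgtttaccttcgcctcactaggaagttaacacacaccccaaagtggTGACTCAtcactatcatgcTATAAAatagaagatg
Mmp1a: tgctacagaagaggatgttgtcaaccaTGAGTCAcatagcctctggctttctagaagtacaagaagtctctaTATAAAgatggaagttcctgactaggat
Mmp3: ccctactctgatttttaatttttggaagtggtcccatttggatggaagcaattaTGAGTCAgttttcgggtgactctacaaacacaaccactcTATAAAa
Mmp8: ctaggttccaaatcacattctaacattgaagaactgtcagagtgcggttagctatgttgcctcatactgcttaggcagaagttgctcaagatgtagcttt
Adamts1: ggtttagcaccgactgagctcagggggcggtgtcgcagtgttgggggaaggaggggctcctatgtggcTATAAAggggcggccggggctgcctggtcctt
Mmp11: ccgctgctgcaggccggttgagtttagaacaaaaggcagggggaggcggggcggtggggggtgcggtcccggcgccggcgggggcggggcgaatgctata
The AP-1 motif begins 63 bases before the start in Mmp10, 35 in Mmp13, 73 in Mmp1a and 46 in Mmp3. In Adamts1 a TATA box begins 32 bases before the start, the only one among the ADAMTS promoters. The full palindromic progesterone response element, searched on both strands, was in 0 of the 26 member promoters and in 0.387% of all promoters. A GATA motif, AGATAA or TGATAA on either strand, was in 2 of the 26 (those of Mmp24 and Mmp7) and in 16.6% of all, and the GC box GGGCGG on either strand in 11 of the 26 and in 32.7% of all. Motifs were counted independently of any overlap, and a match describes letters in these windows only.

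Across the 3 families the changes after P4 ran both ways, and the ADAMTS family held most of them. Adamts9, Adamts1, Adamts15 and Adamts20 rose, Adamts5, Mmp10 and Mmp11 fell, and no TIMP gene passed the test. A gene is called here at a limma p-value under 0.05 after Benjamini-Hochberg adjustment over all 18193 genes. Differences are P4 minus Oil on the scale of log2(intensity + 16), which understates changes of dim genes. Of the 37 members 7 were called, 18.9%, where 13% of all genes tested were called. By family 5 of 15 ADAMTS genes were called (4 higher and 1 lower), 2 of 18 MMP genes (0 and 2) and 0 of 4 TIMP genes. At an unadjusted limma p under 0.05 the counts were 5 higher and 3 lower, 1 and 2, and 0 and 0, where 11.9% of all genes were higher and 14.7% lower at that threshold. After adjustment 6.08% of all genes were called higher and 6.94% lower. The median log2 difference was 0.09 over the ADAMTS genes, -0.07 over the MMP genes and -0.08 over the TIMP genes, where all genes had -0.01. The median size of the difference regardless of sign was 0.37, 0.14 and 0.09, beside 0.13 over all genes. The 6 endothelial markers summed to between 4752 and 5277 on the Oil arrays and between 4273 and 4605 on the P4 arrays. No intensity was at 0, and all 6 markers had negative differences, with a list median of -0.24. Of these, 3 had an unadjusted limma p under 0.05, and only Tek was called lower. Of the 8 epithelial markers 6 had negative differences, with a list median of -0.35. Krt18 (-0.62 ± 0.19), Elf3 (-0.65 ± 0.20) and Krt19 (-0.34 ± 0.10) had P4 arrays below all Oil arrays at an unadjusted limma p under 0.05, none called after adjustment. Cldn3 was called higher (1.21 ± 0.12), and the summed intensity, which includes it, overlapped between groups, from 15689.8 to 17365 against 12135 to 18007. The part of either list in the members' values was not tested.

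Both groups use the replicate numbers 1, 2 and 3. They were taken to pair the arrays because deviations of same-numbered arrays correlated, at 0.53, 0.13 and 0.64, weakly for number 2. The pairing was chosen from the same values that the block fit uses, so calls that the block adds are not independent support. With the number as a block in the limma fit, the calls became 5 higher and 3 lower among ADAMTS genes, 1 and 3 among MMP genes and 1 and 0 among TIMP genes, while calls over all genes became 1690 higher and 2111 lower. The members added were Adamts4, Mmp19 and Timp1, all higher, and Adamts10, Adamts12 and Mmp9, all lower.

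**Figure D1:**
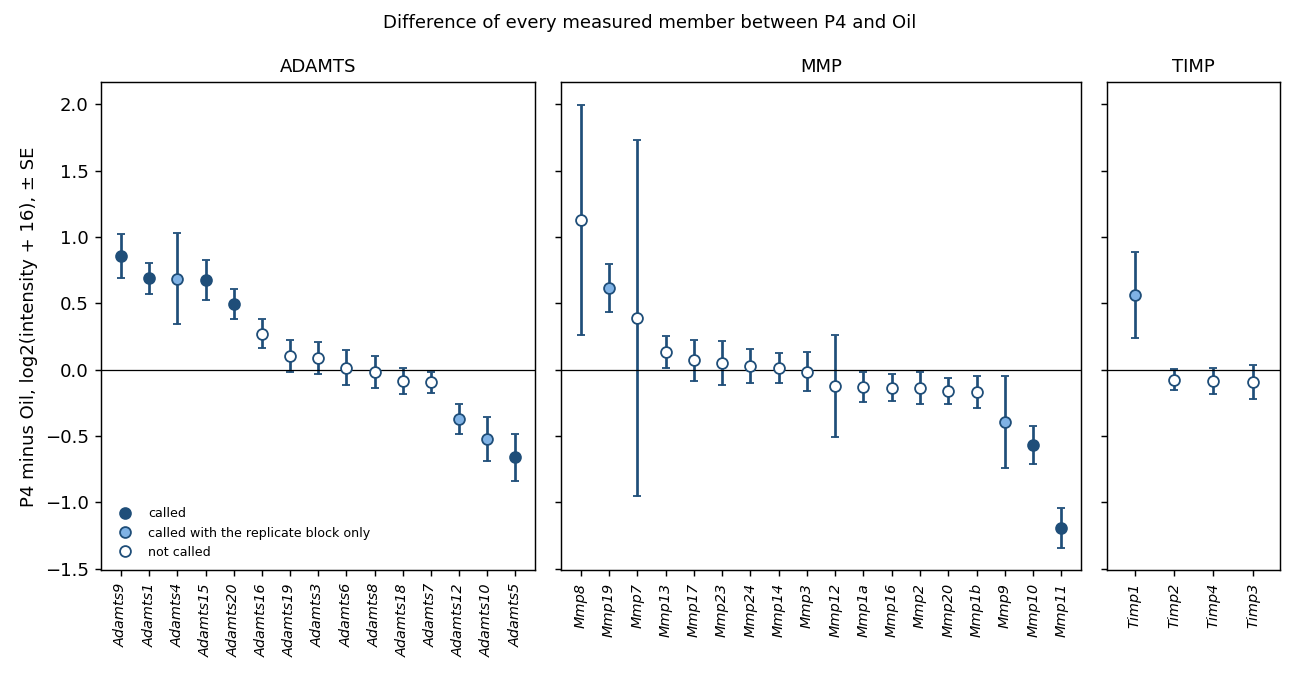
P4 minus Oil difference in log2(intensity + 16) of each of the 37 members with its standard error, by family (15 ADAMTS, 18 MMP and 4 TIMP genes; filled dark, called; filled light, called with the replicate number as a block only; open, not called). The ADAMTS genes spread from 0.86 for Adamts9 to -0.66 for Adamts5, Mmp11 lies lowest at -1.19, and Mmp8 and Mmp7 have the widest error bars.

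Adamts1, a versican-cutting protease required for normal ovulation in mice, rose after P4. Its intensities were 834, 781 and 895 on the Oil arrays and 1202, 1609 and 1292 on the P4 arrays. The groups did not overlap, and the P4 arrays spread more widely than the Oil arrays. The difference was 0.69 ± 0.12 (SE), a 1.61-fold higher level on this scale (limma adjusted p 0.00921), and it was positive in 3 of 3 replicate numbers. The call held without any 1 array (adjusted p up to 0.0492) and was lost with both arrays numbered 2 left out (0.103).

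Adamts9, another versican-cutting protease, rose as well. The Oil arrays gave 232, 196 and 326 and the P4 arrays 444, 465 and 468. The P4 arrays were nearly alike, and the spread lay among the Oil arrays. The difference was 0.86 ± 0.16 (limma adjusted p 0.0138). Leaving out Oil replicate 1 (0.0575) or P4 replicate 2 (0.0535) ended the call, as did leaving out both arrays numbered 2 (0.153). Of the 3 probe sets of Adamts9, the next brightest also had a positive difference (0.77 ± 0.21) and the dimmest had -0.01 ± 0.12. With the mean of all 3 the difference was 0.54 (adjusted p 0.0387), below that of Adamts1.

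Adamts15, which also cuts proteoglycans, read 156, 141 and 215 on the Oil arrays and 260, 263 and 314 on the P4 arrays. Each P4 array lay above each Oil array. The difference was 0.68 ± 0.15 (limma adjusted p 0.0269), but 4 of the 6 fits that left out 1 array lost the call, those without Oil replicates 1 and 2 and P4 replicates 2 and 3 (0.0691 to 0.101). Adamts8, its direct neighbour on chromosome 9 in the RefSeq map, read from 140 to 167 on the Oil arrays and from 128 to 166 on the P4 arrays. Its groups overlapped almost fully, with a difference of -0.02 ± 0.12.

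Adamts20, known in mice for pigment cell migration, was called on a very dim probe set. It read 25.5, 15.6 and 22.6 on the Oil arrays and 35.9, 35.1 and 37.4 on the P4 arrays, below the array median on all 6. The difference was 0.49 ± 0.11 (limma adjusted p 0.0287), and the call was lost in 5 of the 6 fits that left out 1 array, all but that without Oil replicate 1, where it was 0.036 (highest 0.0786). With the 30% dimmest genes left out it was not tested.

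Adamts5, the main aggrecan-cutting protease of mouse cartilage, fell at the edge of the threshold. The Oil arrays gave 377, 502 and 334 and the P4 arrays 236, 306 and 206. The P4 arrays lay below all Oil arrays, by a small margin between P4 replicate 2 and Oil replicate 3. The difference was -0.66 ± 0.18, a 1.58-fold lower level (limma adjusted p 0.0499). Within the replicate numbers the differences were -0.64, -0.69 and -0.65, closely alike, and with the block the adjusted p was 0.00147. Without the block, leaving out Oil replicate 1 or 2 or P4 replicate 1 or 3 ended the call (0.0991 to 0.154). So did 7 of the 13 other settings, among them quantile normalization (0.0637), median centring (0.065) and a scaling to the hybridisation controls (0.112). All 4 probe sets of Adamts5 had negative differences, from -0.66 to -0.25. On the RefSeq map Adamts5 and Adamts1 are adjacent genes of chromosome 16 with no protein-coding gene between them, and they were called in opposite directions.

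**Figure D2:**
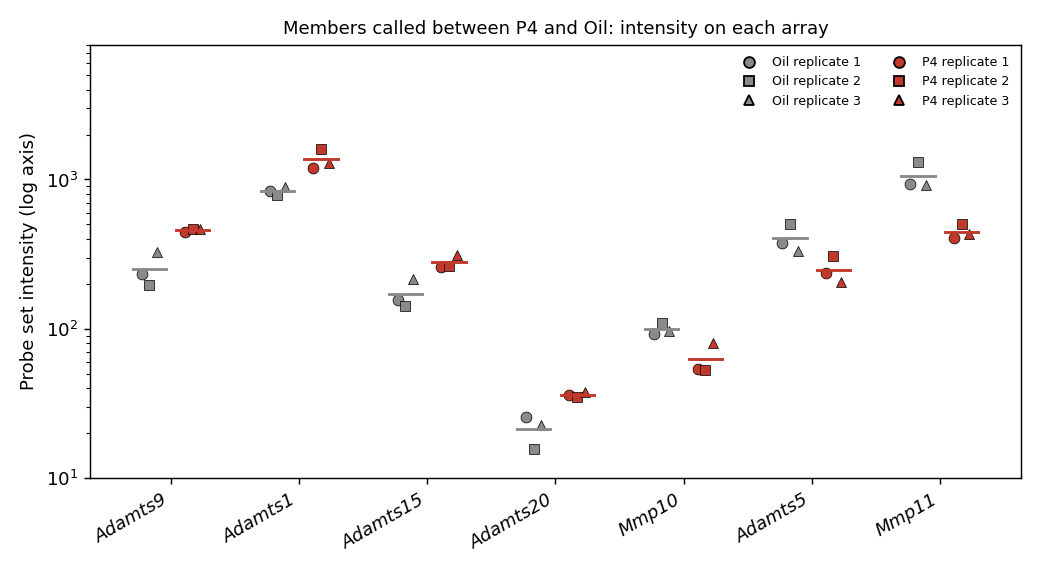
Probe set intensity (log axis) of the 7 called members on each of the 6 arrays, with Oil in grey, P4 in red, the marker shape for the replicate number and a bar at the group mean. The groups do not overlap for any of the 7, and Adamts20 reads below 40 on all arrays.

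The other ADAMTS genes included 3 that were called with the replicate block only. Adamts10, which binds fibrillin microfibrils, read 750, 515 and 653 on the Oil arrays and 518, 364 and 435 on the P4 arrays. The groups overlapped through Oil replicate 2 and P4 replicate 1, while each replicate number gave a lower P4 value. The difference was -0.52 ± 0.17 (limma adjusted p 0.0801; 0.00318 with the block). A second, dimmer probe set of Adamts10 had the opposite sign, 0.13 ± 0.13, and the mean of both probe sets gave -0.20 (adjusted p 0.265). Adamts12 had a difference of -0.37 ± 0.12 with no overlap between groups (adjusted p 0.0777; 0.0209 with the block). Adamts4, an aggrecan-cutting protease induced in inflammation, read 91.7, 81.8 and 226 on the Oil arrays and 146, 229 and 250 on the P4 arrays. Oil replicate 3 stood among the P4 arrays. The difference was 0.69 ± 0.34 (adjusted p 0.26; 0.047 with the block, and 0.0227 without Oil replicate 3).

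The remaining 7 ADAMTS genes had differences from -0.10 to 0.27 and none was called without or with the block. Adamts16 had the largest, 0.27 ± 0.11 (limma adjusted p 0.163), on a probe set below the array median throughout. Its P4 arrays lay above its Oil arrays. Adamts7 had the lowest, -0.10 ± 0.08, with P4 arrays below all Oil arrays by a narrow margin. Adamts19, Adamts3, Adamts6, Adamts8 and Adamts18 had overlapping groups. Over the family 8 of 15 genes had groups without overlap, 53.3%, where 31.8% of all genes had none. The P4 arrays lay above all Oil arrays in 5 of the 15 (14.3% of all genes) and below them in 3 (17.5%). Over the MMP genes 4 of 18 had groups without overlap, 1 with P4 above and 3 with P4 below, and over the TIMP genes 0 of 4.

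Mmp11, also called stromelysin 3, fell, with the largest change among the 7 called members. The Oil arrays gave 932, 1312 and 915 and the P4 arrays 407, 502 and 432. The highest P4 array lay far below the lowest Oil array. The difference was -1.19 ± 0.15, a 2.29-fold lower level (limma adjusted p 0.00311), and it was -1.17, -1.36 and -1.06 within the replicate numbers. It was the only called member to keep its call in all 6 fits that left out 1 array (adjusted p up to 0.0128) and in all 13 other settings (up to 0.0379 with both arrays numbered 2 left out). Mmp11 differs from most MMPs in being activated inside the cell by furin-type convertases, and it lies outside the chromosome 9 group.

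Mmp10, stromelysin 2, was the 1 called gene of the 9 on chromosome 9. It read 92.1, 109 and 96.6 on the Oil arrays and 54.1, 53.3 and 80.4 on the P4 arrays, below the array median on all 6. P4 replicate 3 came closest to the Oil arrays. The difference was -0.57 ± 0.14 (limma adjusted p 0.0391). The call was lost in 5 of the 6 fits that left out 1 array, all but that without P4 replicate 3, where it was 0.0106 (highest 0.145). It was also lost when arrays were scaled to the hybridisation controls (0.0652) and with both arrays numbered 2 left out (0.34).

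The other genes of the chromosome 9 group were mostly dim. Counting Mmp10, 5 of the 9 lay below the array median on all 6 arrays. Mmp13, Mmp1a, Mmp1b and Mmp20, with the AP-1 motif and the TATA box, read from 9.65 to 39.0 over all arrays. Mmp3, with the same motifs, read 157, 192 and 162 on the Oil arrays and 163, 207 and 139 on the P4 arrays. Its groups overlapped fully, with a difference of -0.01 ± 0.15. The differences of Mmp13, Mmp1a, Mmp1b and Mmp20 ran from -0.17 to 0.13 and none was called.

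Mmp2 and Mmp14, the gelatinase and the membrane-anchored protease that activates it, were bright on every array and did not pass the test. Mmp14 read 3289, 3298 and 4052 on the Oil arrays and 3177, 3969 and 3552 on the P4 arrays. The difference was 0.01 ± 0.11, with a 95% interval from -0.25 to 0.27 log2. Mmp2 read 3922, 3931 and 3744 on the Oil arrays and 2883, 3709 and 4038 on the P4 arrays. P4 replicate 1 stood low and the other P4 arrays lay at the Oil level. Its interval ran from -0.42 to 0.14, so in either gene a change within its own interval remains possible.

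Mmp19, a soluble MMP found in many tissues, had P4 arrays above all Oil arrays on a dim probe set. The Oil arrays gave 44, 63.6 and 63.3 and the P4 arrays 70.8, 115 and 104. The difference was 0.61 ± 0.18 (limma adjusted p 0.0622; 0.00381 with the block). It also passed with scaling to the hybridisation controls (0.0342) and with robust moderation (0.0491). A second probe set of Mmp19 had a difference of 0.28 ± 0.12. Mmp17, Mmp23, Mmp24 and Mmp16 had differences from -0.14 to 0.07 and none was called.

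**Figure D3:**
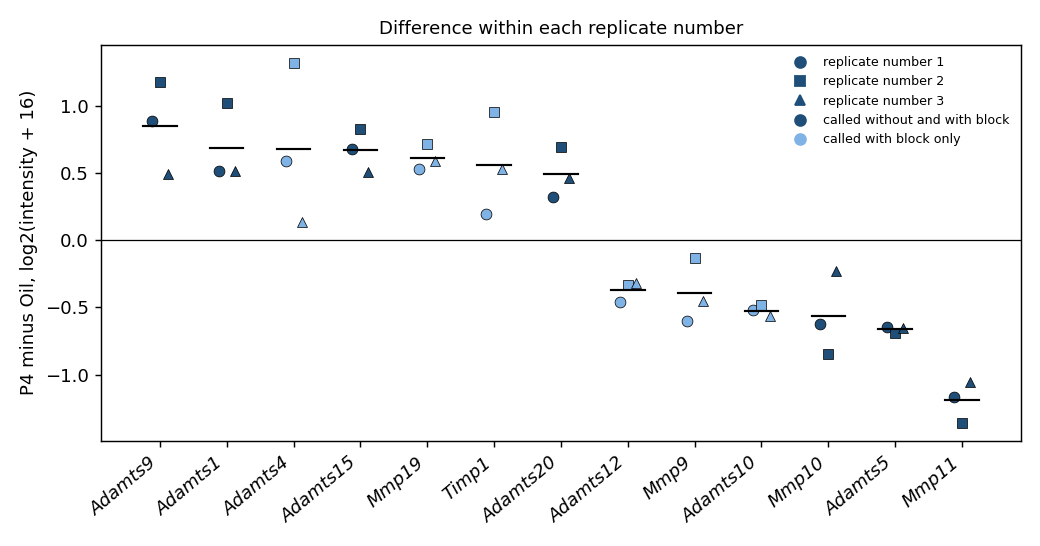
P4 minus Oil difference in log2(intensity + 16) within each replicate number for the 13 members called with the replicate number as a block (dark, also called without it; light, with it only), with a bar at the mean. All differences have the sign of their mean, and those of Adamts5 (-0.64, -0.69 and -0.65) lie closest together.

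Several members varied more between arrays of 1 group than between the groups, and their high arrays were mostly the same ones. Mmp8, neutrophil collagenase, read 14.6, 13.5 and 134 on the Oil arrays and 20.3, 324 and 99.1 on the P4 arrays. Oil replicate 3 and P4 replicates 2 and 3 were high, and the other 3 arrays read 20.3 or less. The difference was 1.13 ± 0.87 (limma adjusted p 0.492). S100a8, a marker gene of neutrophils, read 70.3, 64.3 and 2950 on the Oil arrays and 67.6, 3408 and 4860 on the P4 arrays, high on the same 3 arrays. Of the 10 neutrophil markers 8 were measured, and their summed intensity ran from 735 to 6756 on the Oil arrays and from 783 to 10100.4 on the P4 arrays. All 8 had positive differences, with a list median of 0.48. By limma 0 of the 8 were called, and 0 had an unadjusted p under 0.05. S100a8 and S100a9 made up most of the sum on the high arrays. Camp and Ngp, granule protein genes of maturing neutrophils, were high on P4 replicate 2 alone: Camp read 379 there and from 77.7 to 101 on the other arrays, and Ngp 514 and from 125 to 160. None was at 0, and Elane and Mpo, markers of immature granulocytes, had differences of 0.22 ± 0.10 and 0.21 ± 0.24. Mpo likewise read highest on P4 replicate 2, at 194, and from 89.2 to 115 on the other arrays. The P4 arrays of Elane lay above all its Oil arrays.

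On the probe sets used, Adamts4 and Timp1 were also highest on those 3 arrays. A second probe set of Adamts4 was high on P4 replicates 2 and 3 (124 and 120) but not on Oil replicate 3 (59.1). Timp1, an inhibitor of most soluble MMPs, read 73.5, 67.9 and 140 on the Oil arrays and 86.3, 147 and 210 on the P4 arrays. The groups overlapped, while each P4 array lay above the Oil array of its number. The difference was 0.56 ± 0.32 (limma adjusted p 0.33; 0.0292 with the block). The part of the neutrophil markers in the values of Mmp8, Adamts4 and Timp1 was not tested.

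Mmp7, matrilysin, an epithelial MMP that activates antimicrobial peptides in the intestine, was high on both arrays numbered 3. It read 51.1, 69.8 and 749 on the Oil arrays and 67.1, 53.1 and 1704 on the P4 arrays. P4 replicate 2 stayed low, unlike for Mmp8. The difference was 0.39 ± 1.34, the widest error of any member. Mmp12, macrophage elastase, read 38.5, 31.8 and 123 on the Oil arrays and 37.4, 44.7 and 70.7 on the P4 arrays, highest on the arrays numbered 3. The 8 macrophage markers summed to between 1734 and 4850 on the Oil arrays and between 1529 and 5362 on the P4 arrays. They were lowest on Oil replicate 1 and P4 replicate 1, and their part in the values of Mmp12 was not tested. Of these 8 markers 7 had positive differences and 1 a negative one, with a list median of 0.09. By limma 0 of the 8 were called, and 0 had an unadjusted p under 0.05.

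Mmp9, a gelatinase of neutrophils, macrophages and other cells, read 209, 285 and 450 on the Oil arrays and 132, 260 and 325 on the P4 arrays. In both groups the array numbered 3 was the highest and that numbered 1 the lowest, with P4 the lower in each number. The difference was -0.39 ± 0.35 (limma adjusted p 0.556; 0.0362 with the block). A second probe set of Mmp9 had a difference of the opposite sign, 0.23 ± 0.22, so the call with the block rests on 1 of its probe sets.

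**Figure D4:**
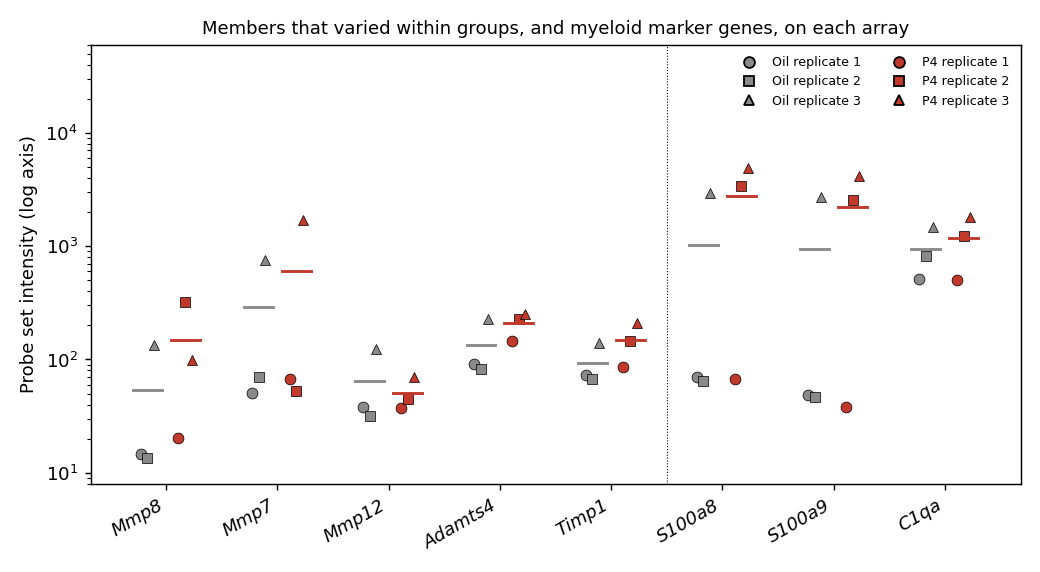
Probe set intensity (log axis) of 5 members that varied within groups (left of the dotted line) and of the neutrophil markers S100a8 and S100a9 and the macrophage marker C1qa, on each of the 6 arrays (Oil in grey, P4 in red, shape for the replicate number, bar at the group mean). Oil replicate 3 and P4 replicates 2 and 3 stand high for Mmp8, S100a8 and S100a9, while for Mmp7 only the arrays numbered 3 do.

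The other TIMP genes were not called without or with the block. Timp2, which inhibits MMPs and also takes part in the activation of pro-MMP2 by MMP14, read 5897, 6151 and 5820 on the Oil arrays and 5124, 6056 and 5823 on the P4 arrays. The groups overlapped, and the difference was -0.07 ± 0.08, with a 95% interval from -0.25 to 0.10 log2. Timp3, which is bound to the matrix, read 4363, 5388 and 3966 on the Oil arrays and 4250, 4804 and 3762 on the P4 arrays. In both groups the array numbered 2 was the highest and that numbered 3 the lowest. The difference was -0.09 ± 0.13, with an interval from -0.40 to 0.21. Timp4 read 81.4, 88.2 and 93.8 on the Oil arrays and 74.5, 80.7 and 90.2 on the P4 arrays, below the array median on all 6. The groups overlapped, and its interval ran from -0.32 to 0.14. The small negative differences of Timp2, Timp3 and Timp4 turned positive when arrays were scaled to the hybridisation controls (0.05, 0.03 and 0.04).

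Probe sets of the same gene gave a check within the arrays. Timp2 has 6 probe sets, with differences from -0.10 to 0.03, and Timp3 has 4, from -0.12 to -0.04. No member had a second probe set of opposite sign to the one used at an unadjusted limma p under 0.05 except Adamts18. Its used probe set had -0.08 ± 0.10 and the dimmest of its 3 had 0.30 ± 0.13. Adamts4 had a second probe set with 0.58 ± 0.22, beside 0.69 ± 0.33 for the one used in that fit over all probe sets.

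**Figure D5:**
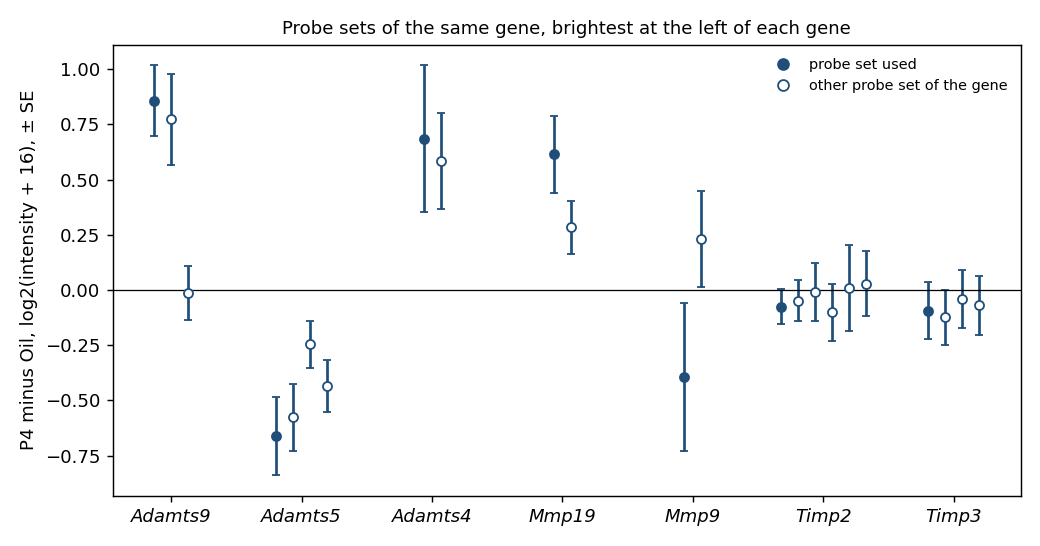
P4 minus Oil difference in log2(intensity + 16) with its standard error for each probe set of 7 members (filled, probe set used; open, others of the gene, brightest at the left). The 4 probe sets of Adamts5 are all below 0, the dimmest of Adamts9 lies at -0.01, and the probe sets of Mmp9 differ in sign.

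Genes that act with these families were taken from 6 lists holding 55 genes, of which 52 were measured. One rose and 1 fell, 3.85% of the 52, where 13% of all genes tested were called. Pcsk5, a proprotein convertase that cleaves proforms of secreted proteins, rose: the Oil arrays gave 303, 290 and 287 and the P4 arrays 596, 805 and 764. The groups were far apart, with a difference of 1.24 ± 0.12 (limma adjusted p 0.00108). Furin, a related convertase, read from 900 to 910 on the Oil arrays and from 759 to 941 on the P4 arrays, with a difference of -0.06 ± 0.10. Lum, the collagen-binding proteoglycan lumican, fell: the Oil arrays gave 3582, 4285 and 4693 and the P4 arrays 1745, 2858 and 2222. Each P4 array lay below each Oil array, with a difference of -0.90 ± 0.18 (adjusted p 0.0156), a call lost without Oil replicate 2 (0.0698). Lum was also 1 of the 8 stromal markers, of which 5 had positive and 3 negative differences. Hoxa11, another stromal marker, was called higher (0.89 ± 0.08). The summed intensity of the 8 overlapped between groups, from 43389 to 48576 on the Oil arrays and from 40589.9 to 51440 on the P4 arrays. With both arrays numbered 2 left out the calls of Pcsk5 and Lum did not remain (limma adjusted p 0.053 and 0.0794).

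By list the counts of genes called higher and lower were 0 and 0 of 7 in the plasminogen system, 1 and 0 of 10 other inhibitors and activators, 0 and 0 of 9 ADAM sheddases and 0 and 0 of 6 ADAMTS-like proteins. They were 0 and 1 of 16 proteoglycans and other substrates and 0 and 0 of 4 clearance and docking receptors. At an unadjusted limma p under 0.05 they were 0 and 1, 1 and 1, 0 and 0, 1 and 0, 0 and 1, and 0 and 0, beside 11.9% higher and 14.7% lower over all genes. Of the brightest genes in these lists beside Lum, Dcn had a difference of -0.18 ± 0.09, Bgn of 0.13 ± 0.19 and Nid1 of 0.20 ± 0.10, and none passed. Vcan and Acan, the best known substrates of ADAMTS proteases, had differences of 0.09 ± 0.18 and 0.05 ± 0.11. With the replicate block the counts over the 52 became 2 and 3, through Adamtsl2, Adamtsl1 and Plat, the tissue plasminogen activator. In that fit Adamtsl2 had a difference of 0.32 ± 0.09 (limma adjusted p 0.0441; 0.0527 without the block) and Adamtsl1 of -0.28 ± 0.08 (0.0448; 0.249 without it). Plat read 2824, 2494 and 4207 on the Oil arrays and 1457, 1579 and 2662 on the P4 arrays, lower in each replicate number (limma adjusted p 0.103; 0.00117 with the block). These 3 genes, Furin, Vcan and Acan were named after their values were seen.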

How the data were processed

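The deposited values are linear probe set intensities on 6 Affymetrix arrays of biotin-labelled cRNA, per the labels' protocols. The authors' method of summarising and scaling is not given in the sources used. Of 45101 probe sets, 34945 had 1 gene symbol in the platform annotation, 932 had several and 9160, besides 64 controls, had none. Array medians differed by 0.059 log2, so log2(intensity + 16) was taken without further normalization, with the probe set of highest mean log2 value for each gene. The groups were compared with limma 3.58.1 (lmFit, then eBayes with trend) in R 4.3.3, without covariates, after a test on simulated data, and p-values were adjusted by Benjamini-Hochberg over 18193 genes at 0.05. The labels do not say that the arrays of a group hold separate animals. The p-values therefore reflect only variation among these arrays, and that variation could be technical.

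Same-numbered arrays had deviations from their group means that correlated at 0.53, 0.13 and 0.64, each above the limit of 0.1 for pairing. The pairing rests on these data and not on the labels, and the deviations of Oil replicate 2 correlated at 0.29 with those of P4 replicate 1. Members, partner lists, marker lists and alternatives were chosen with earlier results of these data known. All members could be named. Partner genes were named where called, up to 4 in each direction, with the 4 brightest. Alternatives changed 1 choice at a time (normalization, pseudocount, probe set, filter, moderation, block, arrays left out). Sequences and neighbours are from RefSeq tables of GRCm38.p6, and figures were drawn with matplotlib 3.10.9.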

Additional observations from a re-analysis of the deposited data

How the results depend on the processing

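The 7 called members kept their direction under all alternatives tried, and Mmp11 kept its call under all of them. With the replicate number as a block, calls higher and lower were 5 and 3 for ADAMTS genes, 1 and 3 for MMP genes, 1 and 0 for TIMP genes, 2 and 3 for partner genes and 1690 and 2111 for all genes, and the block ended none of the members' calls. Scaling to the hybridisation controls moved the median of all genes from -0.01 to 0.12 log2 and the share of calls that were higher to 75.5%. It gave 5 and 0, 1 and 1, 0 and 0, 2 and 1, and 1927 and 624. With both arrays numbered 2 left out the counts were 0 and 0, 0 and 1, 0 and 0, 0 and 0, and 99 and 72. The ADAMTS count lower was 0 with quantile normalization, median centring, pseudocount 50, eBayes without trend and all probe sets adjusted together. The MMP count higher was 1 with robust moderation, and the count lower 1 with the 30% dimmest genes left out. The partner count higher was 2 with quantile normalization, median centring, the mean of all probe sets, the dim genes left out and eBayes without trend, and the count lower 2 with the mean of all probe sets. Leaving out 1 array gave 1 to 4 ADAMTS genes higher and 0 to 1 lower, 0 to 1 MMP genes higher and 1 to 2 lower, 0 TIMP genes, 1 partner gene higher and 0 to 2 lower. Over all genes it gave 485 to 1075 higher and 508 to 1227 lower, lowest without Oil replicate 2.

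Signs turned only for members that were not called. Scaling to the hybridisation controls gave log2 differences of 0.11 for Adamts8, 0.042 for Adamts18, 0.031 for Adamts7, 0.11 for Mmp3, 0.0045 for Mmp12, 0.052 for Timp2, 0.039 for Timp4 and 0.034 for Timp3. The mean of all probe sets gave 0.10 for Adamts18, -0.011 for Mmp23, -0.0079 for Mmp24, -0.024 for Mmp14, 0.023 for Mmp16 and 0.018 for Timp4. Quantile normalization gave -0.083 for Mmp14 and 0.0027 for Mmp3. Without both arrays numbered 2 the values were -0.036 for Adamts3, -0.016 for Adamts6, -0.070 for Mmp8, -0.14 for Mmp17 and -0.12 for Mmp14. Leaving out 1 array gave ranges of -0.11 to 0.14 for Adamts6, -0.082 to 0.089 for Adamts8, -1.11 to 1.5 for Mmp7, -0.092 to 0.18 for Mmp17, -0.11 to 0.17 for Mmp23, -0.071 to 0.11 for Mmp24 and -0.071 to 0.11 for Mmp14. The ranges were -0.16 to 0.11 for Mmp3, -0.41 to 0.36 for Mmp12, -0.24 to 0.0019 for Mmp2 and -0.19 to 0.031 for Timp3. The cause of these changes was not tested. With 3 arrays a group and 11 members below the array median on all arrays, small differences could not be measured.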
